A study of Mus musculus with 6 samples.

Results

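The genes described here are 53 genes of the cell division cycle, 27 that act in S phase and 26 that act in G2 and mitosis, out of 17554 genes measured in mouse corneal epithelium. They were listed by name from what their proteins are known to do, and the phases were compared apart. The rule itself uses no measured value, but the genes were chosen with earlier results of these data known. The S phase genes run from *Cdc6* and *Mcm2* to *Rrm2* and *Ccne1*, and the G2/M genes from *Cdk1* and *Ccnb1* to *Top2a* and *Mki67*. The study asked what loss of *Rela*, the gene of an NF-κB transcription factor subunit, does to the corneal epithelium. RNA of 3 control and 3 mutant samples of corneal epithelium, from C57BL/6 mice 2 months old, was sequenced in bulk. The methods call the samples independent, and whether a sample came from 1 mouse or from several is not given. Control mice carry the genotype label WT. Mutant mice are labelled Rela-/- and are, by the methods of the study, *Krt14-Cre; Rela f/f*, so that *Rela* is lost where the keratin 14 promoter drives the Cre recombinase and not in every cell of the mouse. Whether the control mice carried floxed alleles or Cre is not given in the sources used here. In bulk RNA, more cells in a phase and more RNA per cell in that phase cannot be told apart.

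A cell that will divide first loads the MCM helicase onto its origins of replication, and then fires those origins in S phase, when DNA polymerases, the sliding clamp and the enzymes that make deoxynucleotides copy the genome. In G2 and mitosis, Cdk1 with cyclins A and B starts mitosis, the spindle captures the kinetochores, a checkpoint holds the cell until every chromosome is attached, and the anaphase-promoting complex then destroys the cyclins. Transcription of the first group is driven by E2F factors, and that of the second by B-Myb and Foxm1 at promoters that carry a cell cycle homology region. In the cornea, divisions take place in the limbus and the basal layer of the epithelium, and the daughter cells move up and are shed.

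*Rela* itself had FPKM values, which are levels per transcript length and sample total, of 36.5, 34.7 and 33.4 in controls and 4.93, 5.53 and 5.72 in mutants, which is -2.75 as a log2 fold change (SE, the standard error, 0.085, adjusted p = 5.5e-07 by edgeR). The expected counts of a sample summed to between 19492942 and 19733834, at which 3 counts equal 0.152 to 0.154 CPM. A limit of this kind covers counting error only. All 53 genes passed the filter on low counts, with between 43 and 3551 counts per sample, so none of them was near the limit of detection. Markers of the corneal epithelium were abundant in all 6 samples, with summed FPKM of 45498 to 49549 in control and 39736 to 44220 in mutant samples, and 1 of 5, *Aldh3a1*, was lower in mutant mice. Of 7 basal layer markers 3 were higher (*Krt14*, *Itga6* and *Itgb4*) and 1 was lower (*Krt15*). Their summed FPKM was 13631 to 14702 in control and 14791 to 15614 in mutant samples, most of it *Krt5* (adjusted p = 0.59 by edgeR). *Krt14* was at 203, 150 and 181 in controls and 2204, 1580 and 1474 in mutants, a log2 fold change of 3.32 (adjusted p = 1.1e-05). *Itga6* was at 0.73 (adjusted p = 3.9e-04), *Itgb4* at 0.53 (adjusted p = 0.011) and *Krt15* at -0.55 (adjusted p = 0.039). Of 4 conjunctival markers 1, *Krt13*, was lower and *Muc5ac* had at most 3 counts everywhere, and the summed FPKM was 1362 to 1595 in control and 1074 to 1191 in mutant samples. Of 11 immune cell markers 4 passed the filter on low counts. Of these 4, 2 were higher, *S100a8* and *S100a9*, which keratinocytes can also express. The summed FPKM of the 11 was 23.3 to 33.1 in control and 258 to 1691 in mutant samples. The 8 immune markers other than *S100a8*, *S100a9* and *Cd68* summed to 3.85, 2.58 and 4.47 in controls and 2.5, 2.43 and 2.46 in mutants. Most of that sum was *Ly6g*, at 3.27, 2.21 and 4.12 in controls and 1.81, 1.94 and 2.03 in mutants (adjusted p = 0.095 by edgeR). *Cd68* was at 21.5, 17.3 and 21.8 in controls and 24.5, 24.1 and 22.1 in mutants (adjusted p = 0.22 by edgeR). *Adgre1*, *Cd79a* and *Cd207* had at most 3 counts everywhere. Keratocyte markers summed to 0.14 to 0.25 in control and 0.75 to 3.61 in mutant samples. Of the 7, *Dcn* alone passed the filter on low counts, and it was higher. *Col1a1*, *Col3a1* and *Vim* were not tested, and the FPKM of each lay higher in every mutant than in every control sample. *Lum*, *Col1a2* and *Kera* overlapped, *Kera* with no more than 3 counts in any sample. Of 6 vessel and blood markers, 5 were among the genes measured, and 0 of them passed the filter. These 5 summed to 0.42 to 0.99 in control and 0.29 to 0.61 in mutant samples. The part of these shifts in the results below was not tested.

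Most estimates for genes of both phases lay above 0 in the mutant epithelium, by a small and similar amount. The median log2 fold change of mutant over control, called the log2 difference below, was 0.32, a 1.25-fold higher level, over the 27 S phase genes and again 0.32 over the 26 G2/M genes, against -0.0028 over the 12667 genes tested. The estimate was above 0 for 26 of 27 S phase genes (96.3%) and 24 of 26 G2/M genes (92.3%), against 49.6% of all genes tested. The exceptions were *Prim1* at -0.02, *Cenpf* at -0.05 and *Kif23* at -0.03. Genes were called one by one at a Benjamini-Hochberg adjusted p under 0.05, taken over all genes tested, in the quasi-likelihood test of edgeR. By this test 8 of 53 genes rose (15.1%) and 0 fell, while 7.82% of all genes tested rose and 5.42% fell. The S phase genes that rose were *Pola1*, *Mcm4*, *Rrm1* and *Rrm2*, 4 of 27 (14.8%), and the G2/M genes that rose were *Tpx2*, *Bub1*, *Ndc80* and *Top2a*, 4 of 26 (15.4%). With 1 sample left out, the calls among the 53 numbered 1 without control 2, 1 without mutant 3, 2 without control 1 and 4 without mutant 2. Of all genes tested, 4.46%, 7.03%, 5.41% and 5.88% rose in these fits, in that order. The calls numbered 8 without control 3 and 10 without mutant 1, where 672 of 12875 and 1057 of 12819 genes tested rose. The medians without control 2 were 0.24 in S phase and 0.16 in G2/M. At an unadjusted p under 0.05, 13 S phase and 12 G2/M genes passed, and 28.1% of all genes did. Without control 2 these counts were 7 and 8, and 22.2% of all genes passed. The stricter cutoffs of the study (adjusted p no higher than 0.001 and a fold of 2 or more) were applied here to the edgeR test. None of the 53 met them, while 1.31% of all genes tested did in the higher and 0.0553% in the lower direction.

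**Figure D1:**
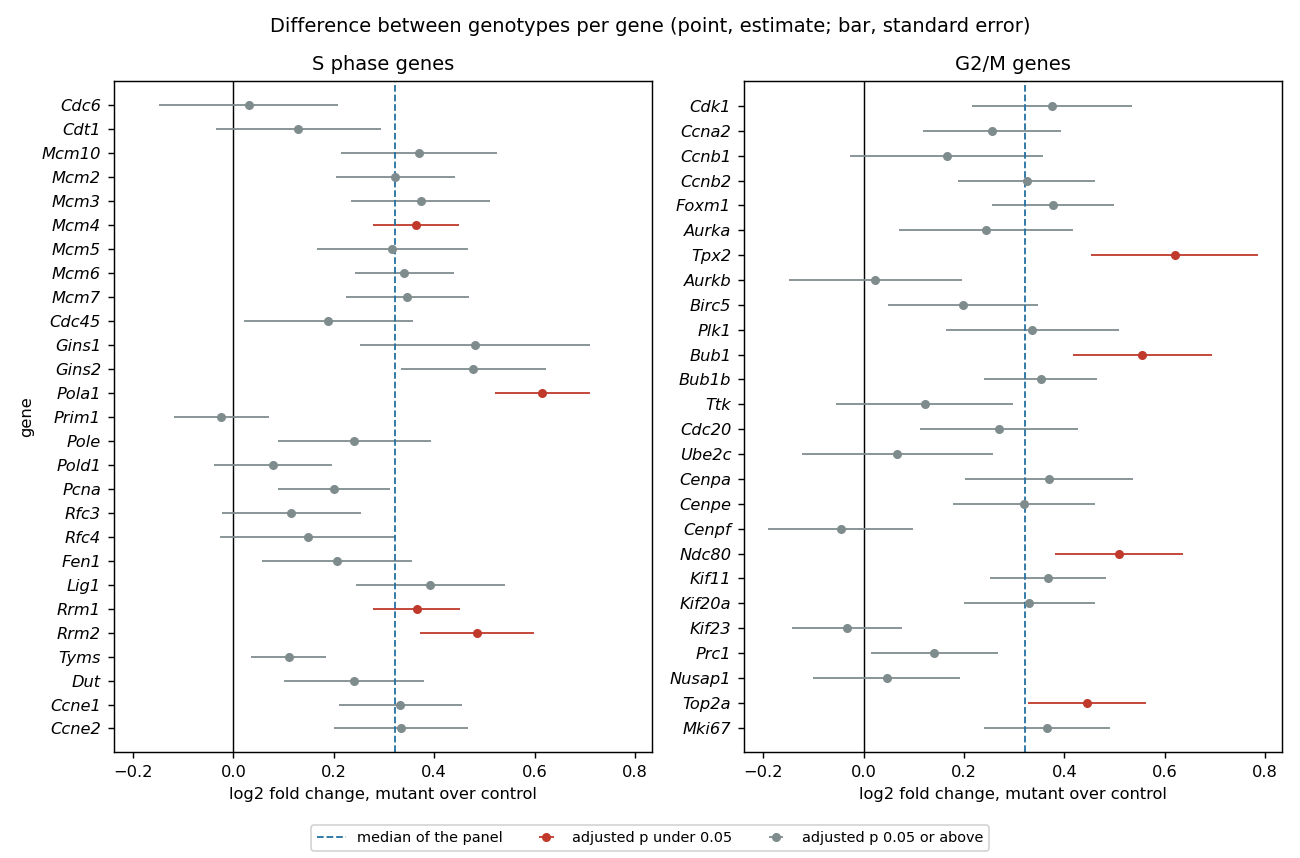
Log2 fold change of mutant over control (x axis) of each S phase gene (left) and each G2/M gene (right), with points for the edgeR estimate, bars for 1 standard error, and red for an adjusted p under 0.05. The medians, drawn as dashed lines, lie at 0.32 in both panels, and only *Prim1*, *Cenpf* and *Kif23* lie below 0.

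Groups that did not overlap were counted beside these calls. The FPKM of every mutant sample lay above that of every control sample for 10 of 27 S phase genes (37%) and 11 of 26 G2/M genes (42.3%), while this held for 17.5% of all genes tested. The reverse, every mutant sample below every control sample, held for 0 of 53 genes and for 15.2% of all genes tested. With 3 samples per group, the exact two-sided permutation test of a gene whose groups do not overlap gives p = 0.1, the smallest p it can give.

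**Figure D2:**
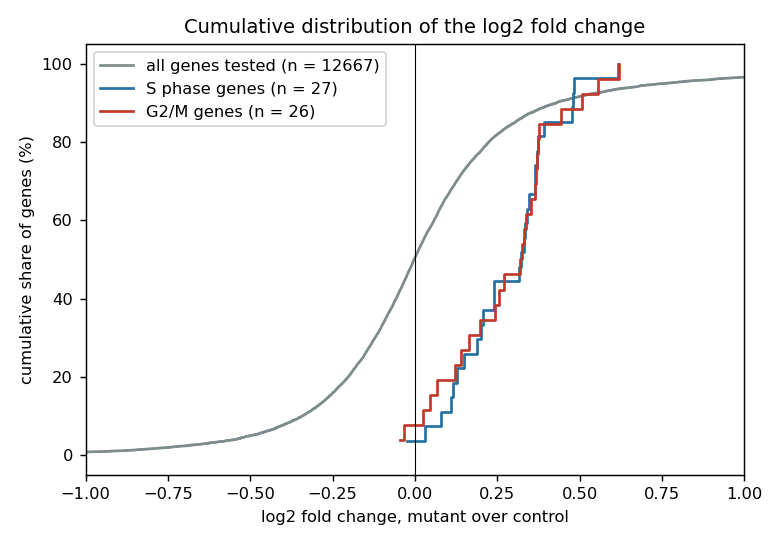
Cumulative share of genes (y axis) at or below a log2 fold change of mutant over control (x axis, cropped at -1 and 1) for the S phase genes, the G2/M genes and all genes tested. The curves of both phases run to the right of the curve of all genes, with medians of 0.32 and 0.32 against -0.0028.

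Promoters were searched for the motifs known from the control of each phase, and the proximal promoters of 3 genes that rose are shown as examples. RefSeq (GRCm38.p6) gave a promoter, from 250 bases before to 50 bases after the start of transcription, for 43 of the 53 genes, 22 of 27 in S phase and 21 of 26 in G2/M. The 10 without an entry are *Pole*, *Ccne2*, *Tpx2*, *Kif20a*, *Ccna2*, *Mcm4*, *Foxm1*, *Aurkb*, *Gins1* and *Gins2*. Sequences run 5′ to 3′ on the strand of the gene, and capitals mark matches on either strand to an E2F site (TTTGGCGC, TTTCGCGC, TTTCCCGC or TTTGCCGC), a cell cycle homology region (TTTGAA or TTCGAA) or a CCAAT box (CCAAT). *Pola1* stands for an S phase promoter with an E2F match, *Rrm2* for one that has only a CCAAT box, and *Top2a* for a G2/M promoter with repeated CCAAT boxes and cell cycle homology regions.
Pola1 (chrX:93632106-93632405, minus strand): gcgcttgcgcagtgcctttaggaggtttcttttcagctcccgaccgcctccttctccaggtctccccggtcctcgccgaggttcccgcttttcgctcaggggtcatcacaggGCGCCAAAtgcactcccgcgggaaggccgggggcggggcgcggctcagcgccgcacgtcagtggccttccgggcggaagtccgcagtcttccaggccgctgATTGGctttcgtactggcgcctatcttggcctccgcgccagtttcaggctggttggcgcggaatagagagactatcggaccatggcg
Rrm2 (chr12:24708004-24708303, plus strand): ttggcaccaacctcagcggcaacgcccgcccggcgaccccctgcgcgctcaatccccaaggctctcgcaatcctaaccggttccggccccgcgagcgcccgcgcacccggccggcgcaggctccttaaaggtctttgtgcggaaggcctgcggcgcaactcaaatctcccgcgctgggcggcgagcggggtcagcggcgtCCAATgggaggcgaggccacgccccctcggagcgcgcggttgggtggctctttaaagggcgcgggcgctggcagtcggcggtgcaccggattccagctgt
Top2a (chr11:99024140-99024439, minus strand): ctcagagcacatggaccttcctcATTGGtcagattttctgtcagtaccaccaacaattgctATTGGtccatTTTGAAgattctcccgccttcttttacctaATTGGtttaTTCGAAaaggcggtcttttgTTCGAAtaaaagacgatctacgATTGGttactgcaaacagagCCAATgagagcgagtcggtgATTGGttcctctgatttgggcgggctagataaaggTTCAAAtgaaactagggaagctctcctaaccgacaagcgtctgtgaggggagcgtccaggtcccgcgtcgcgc

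Shares are of genes with a promoter, and a gene with several promoters counts once, as holding a motif if any of them does. An E2F site by these letters was present in 10 of 22 S phase genes (45.5%) and in 1 of 21 G2/M genes (4.76%), *Cdk1*. The share was 4.63% of the 10112 genes tested that had a promoter and 2.60% of all 27025 genes with one. The matches of the S phase genes are set out with 30 bases around each, with the E2F match in capitals, because they include 4 of the 6 subunits of the MCM ring. Where a gene has more than 1 match, 1 is shown. No motif contains another, but neighbouring matches can overlap, as the E2F match and a CCAAT box do by 1 base in *Mcm7*.
Cdc6 (chr11:98908002-98908031, plus strand): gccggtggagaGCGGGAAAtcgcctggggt
Cdt1 (chr8:122568035-122568064, plus strand): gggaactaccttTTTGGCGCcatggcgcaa
Lig1 (chr7:13278841-13278870, plus strand): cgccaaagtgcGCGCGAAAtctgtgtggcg
Mcm3 (chr1:20820275-20820304, minus strand): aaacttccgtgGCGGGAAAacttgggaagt
Mcm5 (chr8:75109349-75109378, plus strand): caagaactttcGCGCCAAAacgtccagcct
Mcm6 (chr1:128359734-128359763, minus strand): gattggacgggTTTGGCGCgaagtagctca
Mcm7 (chr5:138171849-138171878, minus strand): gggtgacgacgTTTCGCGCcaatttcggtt
Pola1 (chrX:93632275-93632304, minus strand): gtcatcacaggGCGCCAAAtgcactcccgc
Pold1 (chr7:44548766-44548795, minus strand): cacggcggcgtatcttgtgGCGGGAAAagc
Rfc3 (chr5:151651190-151651219, minus strand): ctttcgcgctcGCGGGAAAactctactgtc

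A cell cycle homology region was present in 17 of 21 G2/M genes with a promoter (81.0%), in 5 of 22 S phase genes (22.7%) and in 16.8% of genes tested. The CCAAT box was present in 18 of 21 G2/M genes (85.7%), 13 of 22 S phase genes (59.1%) and 43.3% of genes tested, again of those with a promoter. The G2/M genes with a cell cycle homology region that rose, *Top2a*, *Bub1* and *Ndc80*, are printed with 7 others of known mitotic role, with 30 bases around 1 match each and the match in capitals.
Top2a (chr11:99024195-99024224, minus strand): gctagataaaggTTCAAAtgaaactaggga
Bub1 (chr2:127831828-127831857, minus strand): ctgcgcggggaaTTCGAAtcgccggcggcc
Ndc80 (chr17:71526811-71526840, minus strand): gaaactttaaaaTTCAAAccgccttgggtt
Cdk1 (chr10:69352910-69352939, minus strand): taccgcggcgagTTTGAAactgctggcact
Ccnb2 (chr9:70421533-70421562, minus strand): agcggcgcggtaTTTGAAtcgcggaccggg
Plk1 (chr7:122159453-122159482, plus strand): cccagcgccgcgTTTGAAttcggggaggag
Aurka (chr2:172370521-172370550, minus strand): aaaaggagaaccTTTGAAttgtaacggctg
Cdc20 (chr4:118437344-118437373, minus strand): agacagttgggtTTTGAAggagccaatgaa
Kif11 (chr19:37376351-37376380, plus strand): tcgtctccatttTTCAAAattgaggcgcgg
Mki67 (chr7:135716460-135716489, minus strand): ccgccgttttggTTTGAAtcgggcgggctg

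Of the 8 genes that rose, 6 had a promoter entry, and 5 of these held a CCAAT box, 3 a cell cycle homology region and 1, *Pola1*, an E2F site. A match of letters describes the sequence and does not show binding.

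The largest difference among the S phase genes was that of *Pola1* (gene 18968, chromosome X of GRCm38 from 93304766 to 93632219), the catalytic subunit of DNA polymerase alpha, which starts each new strand together with primase. Its FPKM was 2.03, 2.24 and 2.17 in controls and 3.15, 3.39 and 3.33 in mutants, so the groups lay apart and each was narrow. The mean was 2.15 ± 0.107 (SD, n = 3) in control and 3.29 ± 0.125 (SD, n = 3) in mutant samples, a log2 difference of 0.62 (SE 0.095, adjusted p = 0.0028 by edgeR). *Prim1*, the small primase subunit that works in the same complex, had a log2 difference of -0.02 (SE 0.095), with a mean FPKM of 15.4 in control and 15.2 in mutant samples. The 9 genes of polymerases, clamp and Okazaki fragment joining had a median log2 fold change of 0.20, and *Pola1* alone among them rose or had groups that did not overlap. *Pcna*, the sliding clamp and the most highly expressed of the 53 genes, had an FPKM of 50.1, 45.6 and 53.4 in controls and 65.8, 50.3 and 55.6 in mutants. These values overlapped, since mutant 2 lay below control 3, and the log2 difference of 0.20 (SE 0.11, adjusted p = 0.28) did not pass the test. *Lig1*, which seals Okazaki fragments, was at 0.39 (adjusted p = 0.12), *Pole*, the leading strand polymerase, at 0.24 and *Pold1*, the lagging strand polymerase, at 0.08. The clamp loader subunits *Rfc3* and *Rfc4* were at 0.12 and 0.15. *Fen1*, the flap nuclease, was at 0.21, and 84.2% of its exon bases overlap another gene, so its counts are uncertain. The share was 11.1% to 29.3% for *Kif20a*, *Ube2c*, *Ccne2*, *Rfc4*, *Mcm7*, *Ccna2* and *Prc1*, 1.35% for *Top2a* and 0 for the other 7 genes that rose.

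Among the 12 genes that load and activate the helicase, 1 rose (8.33%), where 7.82% of all genes tested rose. All 12 estimates were above 0, and the median log2 fold change was 0.34 with a range of 0.03 to 0.48. The helicase itself is a ring of the proteins Mcm2 to Mcm7. Its 6 genes differed by nearly the same amount, from 0.32 to 0.37, with a median of 0.34 or 1.27-fold, and their mean control FPKM lay between 8.76 and 15.1. *Mcm4* (gene 17217, chromosome 16 from 15623897 to 15637400), with FPKM values of 11.3, 11.6 and 12.1 in controls and 15.3, 13.5 and 16.4 in mutants, rose by a log2 difference of 0.36 (SE 0.086, adjusted p = 0.022). It was the one subunit whose control samples lay this close together, with an SD of 0.366 FPKM against 1.07 to 1.96 for the other subunits. *Mcm6* followed at 0.34 (adjusted p = 0.051), while the adjusted p of *Mcm2*, *Mcm3*, *Mcm5* and *Mcm7* lay between 0.096 and 0.20. Groups did not overlap for *Mcm2*, *Mcm4* and *Mcm6*. The GINS subunits, which join the ring to Cdc45 to make the active helicase, had the largest estimates of the role, 0.48 for *Gins1* (adjusted p = 0.20) and 0.48 for *Gins2* (adjusted p = 0.058), and neither passed. Of the exon bases of *Gins2*, 67.3% overlap another gene. The loading factors *Cdc6* and *Cdt1*, which put the ring on DNA in G1, were at 0.03 and 0.13, *Cdc45* at 0.19 and *Mcm10*, the lowest of the 53 genes with a mean control FPKM of 1.6, at 0.37 (adjusted p = 0.15).

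Of the 4 genes for nucleotide supply, 2 rose and both encode ribonucleotide reductase, the enzyme that makes deoxynucleotides. *Rrm1* (gene 20133, chromosome 7 from 102441695 to 102469771), its large subunit, was at an FPKM of 18.5, 17.0 and 18.9 in controls and 24.4, 21.1 and 24.7 in mutants, a log2 difference of 0.36 (SE 0.086, adjusted p = 0.023). *Rrm2* (gene 20135, chromosome 12 from 24708254 to 24714146), the small subunit whose level follows the cell cycle, had an FPKM of 13.2, 10.6 and 13.9 in controls and 18.3, 16.1 and 18.4 in mutants, a log2 difference of 0.48 (SE 0.11, adjusted p = 0.022). In both genes all mutant samples lay above all control samples, with control 2 the lowest control and mutant 2 the lowest mutant. *Tyms*, which makes thymidylate, had a log2 difference of 0.11 (adjusted p = 0.38) although its groups did not overlap, and *Dut*, which clears dUTP, of 0.24 (adjusted p = 0.30). The E cyclins, which with Cdk2 start S phase, had groups that did not overlap but did not pass the test. *Ccne1* was at an FPKM of 8.91, 6.89 and 7.71 in controls and 9.46, 8.99 and 11.2 in mutants, and a log2 difference of 0.33 (SE 0.12, adjusted p = 0.11). Mutant 2 lay only just above control 1 there, and *Ccne2* had a log2 difference of 0.33 (adjusted p = 0.14).

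**Figure D3:**
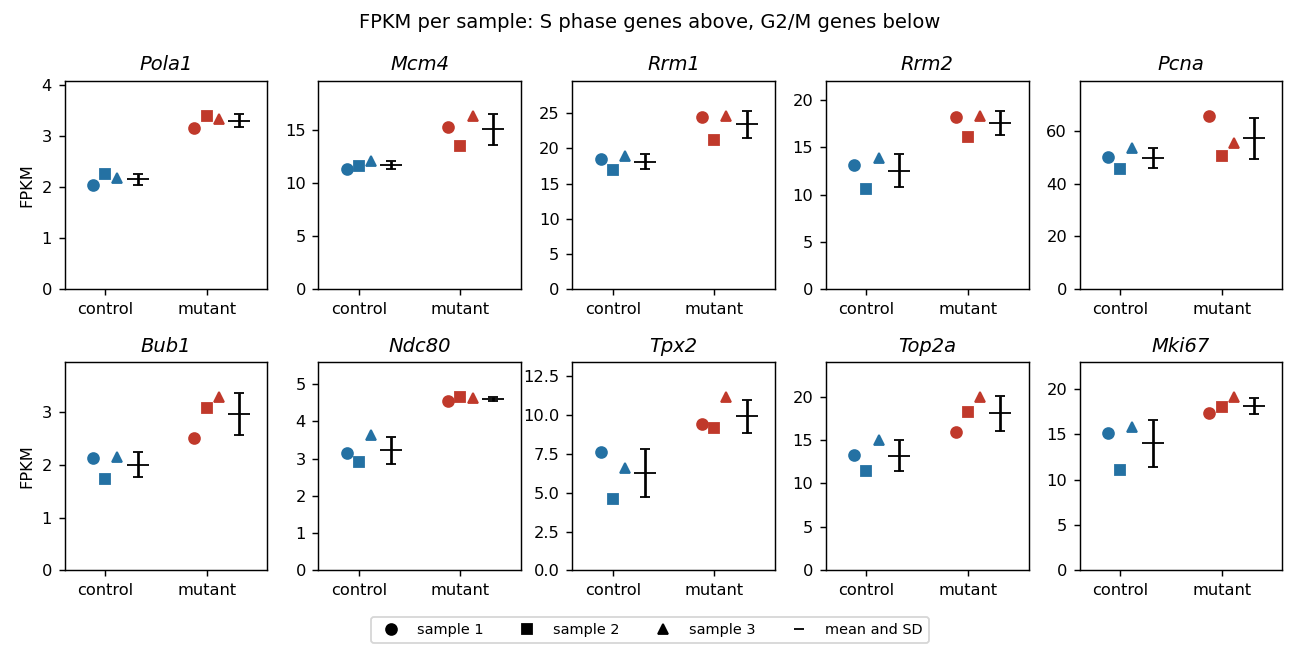
FPKM (y axis) of selected S phase and G2/M genes in each of the 3 control and 3 mutant samples, with a symbol per sample and bars for the mean and SD of each group. *Pola1* and *Ndc80* show groups that lie apart, while *Pcna* overlaps, with 50.3 in mutant 2 and 53.4 in control 3.

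*Tpx2* (gene 72119, chromosome 2 from 152847964 to 152895321), which activates Aurora A on the spindle, had the largest difference of the G2/M genes. Its FPKM was 7.63, 4.58 and 6.56 in controls and 9.42, 9.15 and 11.2 in mutants, a log2 difference of 0.62 (SE 0.17, adjusted p = 0.038). The control samples were spread, with control 2 well below the other two, and still all mutant samples lay above them. The other 4 genes of mitotic kinases and their partners had estimates of 0.02 for *Aurkb*, 0.20 for *Birc5*, which is survivin, 0.24 for *Aurka* and 0.34 for *Plk1*, each with overlapping groups and an adjusted p of 0.24 or more. *Cdk1*, the A and B cyclins and *Foxm1*, the factor that switches on mitotic genes, had a median of 0.32 and a range of 0.17 to 0.38, and none passed. *Foxm1* had an FPKM of 5.42, 4.53 and 5.86 in controls and 5.98, 7.05 and 7.58 in mutants, a log2 difference of 0.38 (SE 0.12, adjusted p = 0.072), and its groups were separated only narrowly, by control 3 and mutant 1. *Cdk1* was at 0.37 (adjusted p = 0.16), *Ccnb2* at 0.32 (adjusted p = 0.15), *Ccna2* at 0.26 (adjusted p = 0.26) and *Ccnb1* at 0.17 (adjusted p = 0.62).

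Of the 5 genes of the spindle checkpoint and of cyclin destruction, *Bub1* rose. *Bub1* (gene 12235, chromosome 2 from 127800197 to 127831859), the kinase that gathers the checkpoint at kinetochores, had an FPKM of 2.13, 1.73 and 2.14 in controls and 2.51, 3.07 and 3.28 in mutants, a log2 difference of 0.56 (SE 0.14, adjusted p = 0.029). Its partner *Bub1b* was at 0.35 (adjusted p = 0.070) with groups that did not overlap. *Cdc20*, which directs the anaphase-promoting complex to its targets, was at 0.27 (adjusted p = 0.30), *Ttk*, the checkpoint kinase Mps1, at 0.12 and *Ube2c*, the ubiquitin-conjugating enzyme of that complex, at 0.07. *Ube2c* was the most highly expressed G2/M gene, with a mean FPKM of 29.9 ± 7.47 (SD, n = 3) in control and 31.4 ± 5.80 (SD, n = 3) in mutant samples.

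At the kinetochore, *Ndc80* (gene 67052, chromosome 17 from 71496100 to 71526857), the protein that grips microtubules, was at 3.14, 2.92 and 3.63 FPKM in controls and 4.54, 4.65 and 4.63 in mutants, a log2 difference of 0.51 (SE 0.13, adjusted p = 0.029). The mutant samples were nearly equal, with a mean of 4.61 ± 0.0586 (SD, n = 3), and stood clear of the controls. The centromeric histone gene *Cenpa* was at 0.37 (adjusted p = 0.18), the kinesin gene *Cenpe* at 0.32 (adjusted p = 0.18) and *Cenpf* at -0.05 (adjusted p = 0.88). The 5 spindle motors and bundlers had the lowest median of the 10 roles, 0.14, with a range of -0.03 to 0.37, and none passed. *Kif11*, the motor that pushes the spindle poles apart, was at 5.27, 4.02 and 5.36 FPKM in controls and 6.30, 6.40 and 6.23 in mutants, a log2 difference of 0.37 (SE 0.12, adjusted p = 0.067). Its groups lay apart, whereas those of *Kif20a* (0.33), *Prc1* (0.14), *Nusap1* (0.05) and *Kif23* (-0.03), which build or bundle the late spindle, overlapped.

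*Top2a* (gene 21973, chromosome 11 from 98992947 to 99024205), the topoisomerase that untangles sister chromosomes, was at 13.2, 11.4 and 14.99 FPKM in controls and 16.0, 18.3 and 19.9 in mutants, a log2 difference of 0.45 (SE 0.12, adjusted p = 0.036). *Mki67*, the proliferation marker that coats mitotic chromosomes, was at 15.1, 11.04 and 15.8 in controls and 17.3, 18.0 and 19.1 in mutants, a log2 difference of 0.36 (SE 0.13, adjusted p = 0.089). For both, all mutant samples lay above all control samples and control 2 was the lowest sample.

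Single samples weighed on these differences, control 2 in G2/M and both control 2 and mutant 3 in S phase. Expressed as a percentage of the mean of the control samples, the median S phase gene stood at 99.2%, 91.7% and 110.0% in the control samples and at 128.6%, 109.6% and 140.1% in the mutant samples. Mutant 2 was thus level with control 3, and mutant 3 was the highest sample for 20 of the 27 genes. The median G2/M gene stood at 107.8%, 79.4% and 112.8% in the control samples and at 114.7%, 120.9% and 126.7% in the mutant samples. Control 2 was the lowest of the 6 samples for 25 of 26 G2/M genes and for 17 of 27 S phase genes, and for 2384 of 12667 genes tested. Over all genes tested the median lay between 98.2% and 101.6% in each of the 6 samples, on a scale that is set by each sample's total. The summed FPKM of the genes tested was 435682 in control 2, the lowest of the 6, and 448077 to 454765 in the others. The part of this in the low values of control 2 was not tested.

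**Figure D4:**
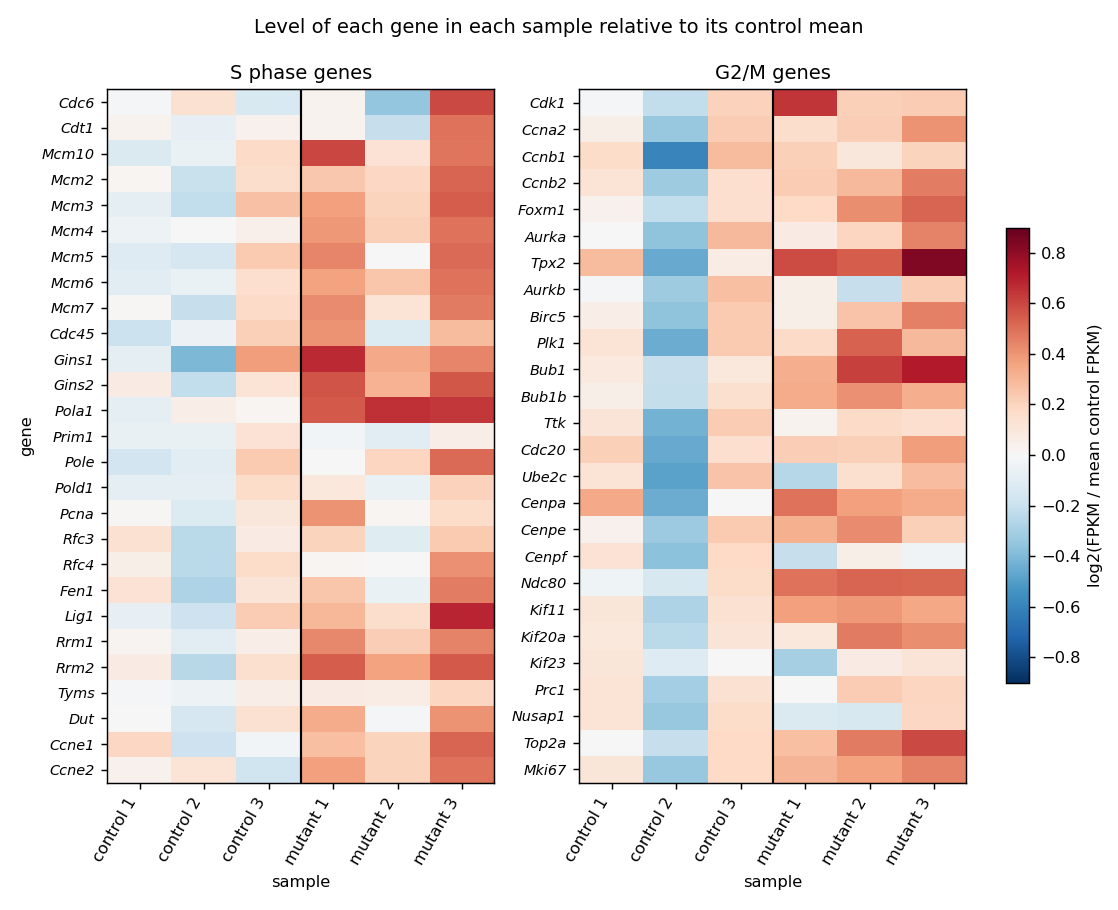
Log2 of FPKM over the mean FPKM of the control samples (colour) for each of the 53 genes (rows, S phase in the left panel and G2/M in the right) in each of the 6 samples (columns). Control 2 is the lowest sample for 25 of 26 G2/M genes, and mutant 3 the highest for 20 of 27 S phase genes.

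Without control 2 the medians were lower, more so in G2/M. The median log2 fold change became 0.24 for S phase genes, with 26 of 27 above 0, and 0.16 for G2/M genes, with 18 of 26 above 0. Of the 53 genes, *Pola1* alone then passed the test, at 0.63 (SE 0.11, adjusted p = 0.016), while 4.46% of all genes tested rose in that fit. *Tpx2* was then at 0.43 (adjusted p = 0.059), *Rrm2* at 0.37 (adjusted p = 0.062), *Mcm4* at 0.35 (adjusted p = 0.085), *Rrm1* at 0.31 (adjusted p = 0.0996), *Ndc80* at 0.43 (adjusted p = 0.11), *Bub1* at 0.45 (adjusted p = 0.11) and *Top2a* at 0.34 (adjusted p = 0.13). Without mutant 3, *Pola1* was again the only gene called of the 53, a smaller share than the 7.03% of all genes tested that rose in that fit, and the S phase median was 0.23 with 24 of 27 estimates above 0. Without control 1, the calls were *Pola1* and *Tpx2*, where 5.41% of all genes tested rose. Without mutant 2 they were *Pola1*, *Mcm4*, *Rrm1* and *Rrm2*, with 0 of the G2/M genes, where 5.88% of all genes tested rose. Relative to the fit with all 6 samples, the fit without control 3 added *Mcm3* and *Mcm6* and lost *Tpx2* and *Bub1*. The fit without mutant 1 added *Foxm1* and *Kif20a* and lost none. The estimate stayed above 0 whichever sample was left out for 24 of 27 S phase genes and 18 of 26 G2/M genes, among them all 8 that rose.

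**Figure D5:**
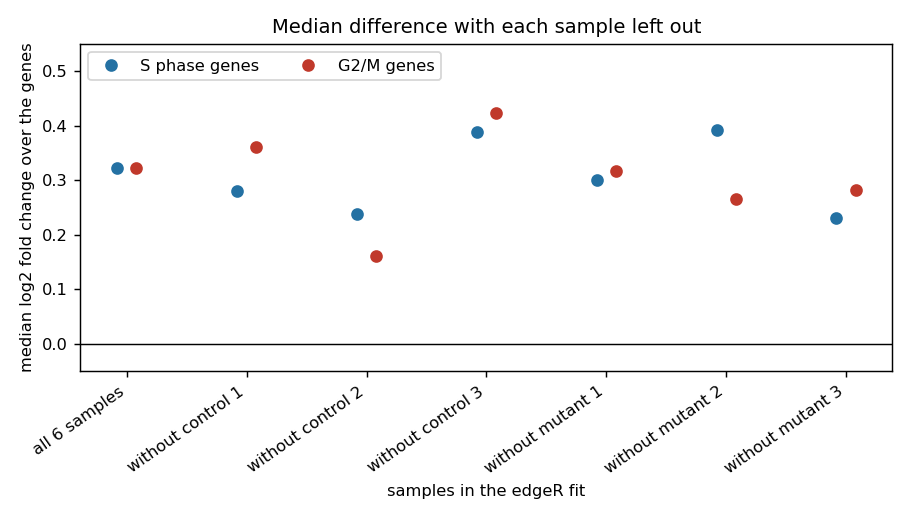
Median log2 fold change of mutant over control (y axis) of the S phase and the G2/M genes in edgeR fits with all 6 samples and with each sample left out (x axis). All medians lie above 0, and the lowest is that of G2/M genes without control 2, at 0.16.

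The spread within groups differed between the phases. The median coefficient of variation of S phase genes was 12.2% in control and 12.6% in mutant samples. That of G2/M genes was 18.8% in control and 9.98% in mutant samples, and over all genes tested it was 8.06% and 9.97%. Without control 2, the control values were 6.68% for S phase genes, 5.63% for G2/M genes and 6.27% for all genes tested. The ratio of the summed FPKM of S phase genes to that of G2/M genes was 1.05, 1.31 and 1.09 in controls and 1.32, 1.02 and 1.16 in mutants, so the balance of the phases overlapped between the groups.

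Other genes of the same pathways, 166 tested of 209 listed, were read beside the 53. Of these 166, 15 rose and 2 fell, while 7.82% of all genes tested rose and 5.42% fell. With 1 sample left out the calls ranged from 5 to 20. They numbered 9 without control 1, 5 without control 2 (all higher) and 6 without mutant 2. In these fits 696 of 12873, 574 of 12868 and 755 of 12835 genes tested rose, and 425, 283 and 430 fell, in that order. Of 58 other mitotic genes tested, 8 rose (13.8%) and 0 fell, 54 estimates were above 0 and the median was 0.28. The 3 with the smallest adjusted p were *Smc2* of the condensin complex (0.47, adjusted p = 0.014), *Sgo2a*, which guards centromeric cohesion (0.62, adjusted p = 0.015, with 35% of its exon bases shared with another gene), and the chromatin protein gene *Hmgb2* (0.46, adjusted p = 0.016), and their calls were lost in 2, 2 and 3 of 15 alternatives. Of 50 other replication genes, 1 rose, the polymerase epsilon subunit *Pole3* (0.46, adjusted p = 0.038), 0 fell, 37 estimates were above 0 and the median was 0.13. That is 2.00% of the list, where 7.82% of all genes tested rose, and the call of *Pole3* was lost in 7 of 15 alternatives, with an adjusted p of up to 0.13.

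Among 20 regulators of the E2F, Rb and DREAM systems, which switch these genes on and off, 1 rose (5%) and 0 fell. Over all genes tested, 7.82% rose and 5.42% fell. The median log2 fold change of the 20 regulators was 0.10. The regulator that rose was *E2f7*, an E2F family repressor that is itself made in S phase, with an FPKM of 4.51, 4.18 and 4.39 in controls and 8.40, 7.16 and 7.36 in mutants. Its log2 difference of 0.80 (SE 0.090, adjusted p = 4.8e-04) lay above the estimate of each of the 53 genes. Of 23 checkpoint and fork repair genes, 2 rose (8.70%), a share close to the 7.82% of all genes tested. They were the recombination gene *Brca2* (0.56, adjusted p = 0.0077) and the helicase gene *Blm* (0.66, adjusted p = 0.011). In the same list 1 fell, *Wee1*, the kinase that holds Cdk1 inactive, with an FPKM of 9.11, 13.7 and 12.5 in controls and 6.73, 7.05 and 9.03 in mutants, a log2 difference of -0.63 (adjusted p = 0.029). The separation of *Wee1* was narrow, between 9.11 in control 1 and 9.03 in mutant 3, and its call was lost in 6 of 15 alternatives, with an adjusted p of up to 0.12 when control 2, its highest sample, was left out.

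Of 58 genes listed as replication-dependent histones by the pattern of their symbols, 15 passed the filter. The mRNA of such genes is mostly made in S phase and without a poly(A) tail. Whether that holds for each gene of the list was not tested. Of the 15 tested, 3 rose (20.0%) and 1 fell, where 7.82% of all genes tested rose and 5.42% fell. The linker histone gene *Hist1h1c* was at 16.2, 15.04 and 15.3 FPKM in controls and 37.0, 42.1 and 40.5 in mutants, a log2 difference of 1.36 (adjusted p = 3.0e-05). The others were *Hist1h1e* (1.51, adjusted p = 0.0061), *Hist1h2ae* (adjusted p = 0.036), with only 3.08, 0 and 2.88 expected counts in controls and 9.63, 11.1 and 11.2 in mutants, and, lower, *Hist2h2be* (-0.69, adjusted p = 0.047). Histone genes are near-identical copies among which reads of 50 bases may be divided, so the values of single histone genes are uncertain. The calls of *Hist1h2ae* and *Hist2h2be* were each lost in 8 alternatives, with an adjusted p of up to 0.092 and 0.14.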

How the data were processed

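Corneal epithelial RNA of 3 control and 3 mutant samples was analysed. Per the labels and the study's methods, the authors filtered single-end reads of 50 bases with SOAPnuke, aligned them with Bowtie2 2.2.5 and estimated expected counts per gene with RSEM 1.2.12. Between 31.5% and 32.2% of a sample's deposited expected counts are not whole, and they are not normalized. The deposited FPKM values were scaled by the authors for transcript length and sample total. Columns of the authors' own comparison (p-values, q-values and log2 ratios) and of group means were not used. Gene coordinates in the table are those of GRCm38, although the submitters' processing notes name mm9, and the labels and the methods name different library kits. Whether rRNA removal or poly(A) selection was used is thus not settled, which bears on histone genes.

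Expected counts were rounded and tested with edgeR 4.0.16 in R 4.3.3 (TMM scaling, filterByExpr with min.count 10 and min.total.count 15, quasi-likelihood test, Benjamini-Hochberg adjustment over 12667 genes). Standard errors were taken as the absolute log2 fold change divided by the root of F. Exact permutation tests are two-sided. The script was tested on simulated counts whose changed genes had larger folds than the genes described here. That test does not show how well differences of the size reported here are found. The members and lists were chosen with earlier results of these data known. Values of every sample are given for each gene called, for *Pcna* and *Mki67*, and for the gene with the smallest adjusted p of each role. From each other list up to 3 called genes per direction are named. Alternatives were DESeq2 1.42.0, other scalings and filters, limma 3.58.1 on log2(FPKM + 1) and log2(FPKM + 0.1), a replicate block, other thresholds and each sample left out. Offsets for GC content and length were added after seeing the data. The motifs and their windows were searched by exact letters in RefSeq promoters.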

Additional observations from a re-analysis of the deposited data

How the results depend on the processing

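The median log2 fold change stayed above 0 in every setting tried, between 0.23 and 0.39 for S phase genes and between 0.16 and 0.42 for G2/M genes with 1 sample left out. Of the 8 genes called, all 8 were called again with DESeq2 (10 genes), upper-quartile scaling (8), size factors (9), no filter (8), 10 or more counts per sample (9) and, added after seeing the data, offsets for GC content and length (10). Over all genes, 991 of 12667 rose in the main fit, 1087 of 17513 with DESeq2 and 1027 of 17514 without a filter. The numbers were 921 with upper-quartile scaling, 997 with size factors and 1196 with offsets, each of 12667. With 10 or more counts per sample, 879 of 11968 rose. Limma on log2(FPKM + 1) called 9, of which 7 were shared, and on log2(FPKM + 0.1) it called 2, *Pola1* and *Ndc80*, 1 in each phase. In these fits 870 and 745 of 12667 genes tested rose, in that order. At an adjusted p under 0.1, 7 S phase and 8 G2/M genes were called, 15 of the 53, and 32 genes of the other pathway lists in place of 17. The share of all genes called at that threshold was not counted, so these counts have no background beside them. The cutoffs of the study's methods, applied to the edgeR test, left 0 of the 53 (0 in each phase) and 1 of the other pathway genes. With 1 sample left out, the calls ranged from 1 to 6 in S phase, from 0 to 6 in G2/M, from 1 to 10 over the 53 genes and from 5 to 20 over the other lists.

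Same-numbered samples are different mice, and the correlations of their deviations were 0.0185, 0.0471 and -0.0474. Those of differently numbered samples ran from -0.077 to 0.0644. Whether the numbers pair the samples is not given in the sources used here, and such correlations cannot settle it. With the replicate number as a block, 9 S phase genes and 12 of the 53 genes were called, with *Mcm2*, *Mcm3*, *Mcm6*, *Mcm7* and *Lig1* added and *Ndc80* lost. In that fit 867 of 12667 genes tested rose and 552 fell.

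The sign changed for 11 genes, none of them called. With 1 sample left out the log2 fold change ranged from -0.15 to 0.19 for *Cdc6*, -0.073 to 0.27 for *Cdt1*, -0.067 to 0.059 for *Prim1*, -0.065 to 0.35 for *Ccnb1*, -0.12 to 0.20 for *Aurkb*, -0.061 to 0.26 for *Ttk*, -0.13 to 0.23 for *Ube2c*, -0.21 to 0.063 for *Cenpf*, -0.098 to 0.075 for *Kif23*, -0.0011 to 0.23 for *Prc1* and -0.090 to 0.12 for *Nusap1*. With the offsets *Aurkb* was at -0.0164 and *Cenpf* at 0.011, and limma gave *Nusap1* -0.0121 and -0.0125 with the larger and the smaller pseudocount. The cause was not tested. With 3 samples per group, 45 of the 53 differences did not pass the test. The lowest count of a gene in a sample was 43, and the part of depth in the calls was not tested.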
